A study of Mus musculus with 19 samples.

Results

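The 36 genes described here encode most of the enzymes that build cholesterol and fatty acids, together with the regulators that switch those enzymes on. They fall into 19 sterol enzymes, 7 genes of the SREBP pathway and sterol handling, and 10 fatty acid enzymes. The genes were taken by name, with Msmo1 under its older name Sc4mol, and a probe was kept where its neuron signal was well above background on at least 4 of the 19 arrays. Of the 71 probes that carry these names 68 were kept, and all 36 genes were tested among 19205 genes in the series.

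Cultured mouse hippocampal neurons were treated at day 21 in vitro, and RNA was taken after 6 h. The 4 groups were vehicle (n = 5), 100 µM AP5 (n = 5), 100 nM NVP-AAM077 (n = 4) and 1 µM Ro25-4891 (n = 5). The NMDA receptor, which AP5 blocks competitively, is a glutamate-gated ion channel of excitatory synapses, and NVP-AAM077 is an antagonist that prefers receptors containing the GluN2A subunit. Ro25-4891 is named as the labels spell it, and no further identity is assumed. On every array the RNA of the cultures carried Cy5 (red) and a universal mouse reference RNA carried Cy3 (green), so each value below is a log2 ratio of red over green after background correction and loess. A level of 0 therefore means the same normalised signal as the reference pool, and levels of different genes are comparable only relative to that pool. The dyes were not exchanged, so a dye effect on a gene could not be told apart from its abundance in the cultures.

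Cholesterol is made from acetyl-CoA by a chain of enzymes that leads through mevalonate, isoprenoids and squalene to lanosterol and then through a series of sterol intermediates. Fatty acids are made from malonyl-CoA by fatty acid synthase and are then lengthened by elongases and desaturated by desaturases. The transcription factors SREBP1 and SREBP2, held in the endoplasmic reticulum by SCAP and INSIG proteins when sterol is plentiful, drive both sets of genes; in brain, astrocytes make much of the cholesterol that neurons take up.

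All 12 neuron markers examined were well above background on all 19 arrays, and so were 16 of the 17 astrocyte markers, so RNA of both cell types was present. The mean log2 ratio of 16 astrocyte markers was between 3.74 and 4.41 on 15 arrays. It was 3.14 on AP5 array 5, 3.12 on NVP-AAM077 array 4, 2.97 on Ro25-4891 array 3 and 3.05 on vehicle array 3, which stood apart from the rest. By group it was 3.92 ± 0.48 (SD, n = 5) with AP5, 3.85 ± 0.50 (n = 4) with NVP-AAM077, 3.76 ± 0.47 (n = 5) with Ro25-4891 and 3.69 ± 0.37 (n = 5) with vehicle, and the difference between AP5 and vehicle did not pass (exact permutation test, two-sided, p = 0.389). In such mixed cultures fewer cells of a type and less RNA per cell cannot be told apart. The arrays lay on 5 slides. AP5 arrays 1 to 4 filled slide 1, vehicle arrays 1, 3, 4 and 5 filled slide 5, and no slide held both AP5 and vehicle. Median red intensity ran from 135 to 178 per array, and up to 1642 gene spots per array carried a quality mark, the highest number being that of vehicle array 5, where Mvd was not measured. No member spot was saturated.

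In vehicle-treated cultures most members gave a higher signal than the reference pool. Of the 36 genes 29 lay above it, 16 of the 19 sterol enzymes, 5 of the 7 SREBP genes and 8 of the 10 fatty acid enzymes. The share of all genes above the reference was not counted, so the count of 29 has no background beside it. The median level was 0.59 for the sterol enzymes and 0.32 for the fatty acid enzymes, against 0.10 for all genes tested, which also lay above the reference. Mvk (0.09), Fdps (0.07), Nsdhl (0.05) and Acaca (0.02) lay above the reference but below that median of all genes. Hmgcs1, which makes HMG-CoA at the entrance to the mevalonate pathway, stood highest at 2.82 ± 0.31 (SD, n = 5), 7.05-fold above the reference. It was followed by Elovl6, the elongase that acts on palmitate, at 1.87 ± 0.10, by Dhcr7, which completes cholesterol synthesis from 7-dehydrocholesterol, at 1.68 ± 0.04, and by the fatty acid desaturase Fads2 at 1.31 ± 0.34. Below these the levels ran closely from Tm7sf2 at 1.16 to Insig1 at -0.31, and Srebf1, the gene of SREBP1, stood last at -0.91 ± 0.53. Gaps between neighbours in this order exceeded the SDs of both neighbours in 5 places, those between the first 4 genes, that between Scap and Sc5d, and that between Insig1 and Srebf1. The spread within the group differed widely: the 3 genes with SDs of 0.44 or more were Srebf1, Scd2 (0.49 ± 0.45) and Scd1 (0.38 ± 0.44), the last 2 encoding stearoyl-CoA desaturases.

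**Figure D1:**
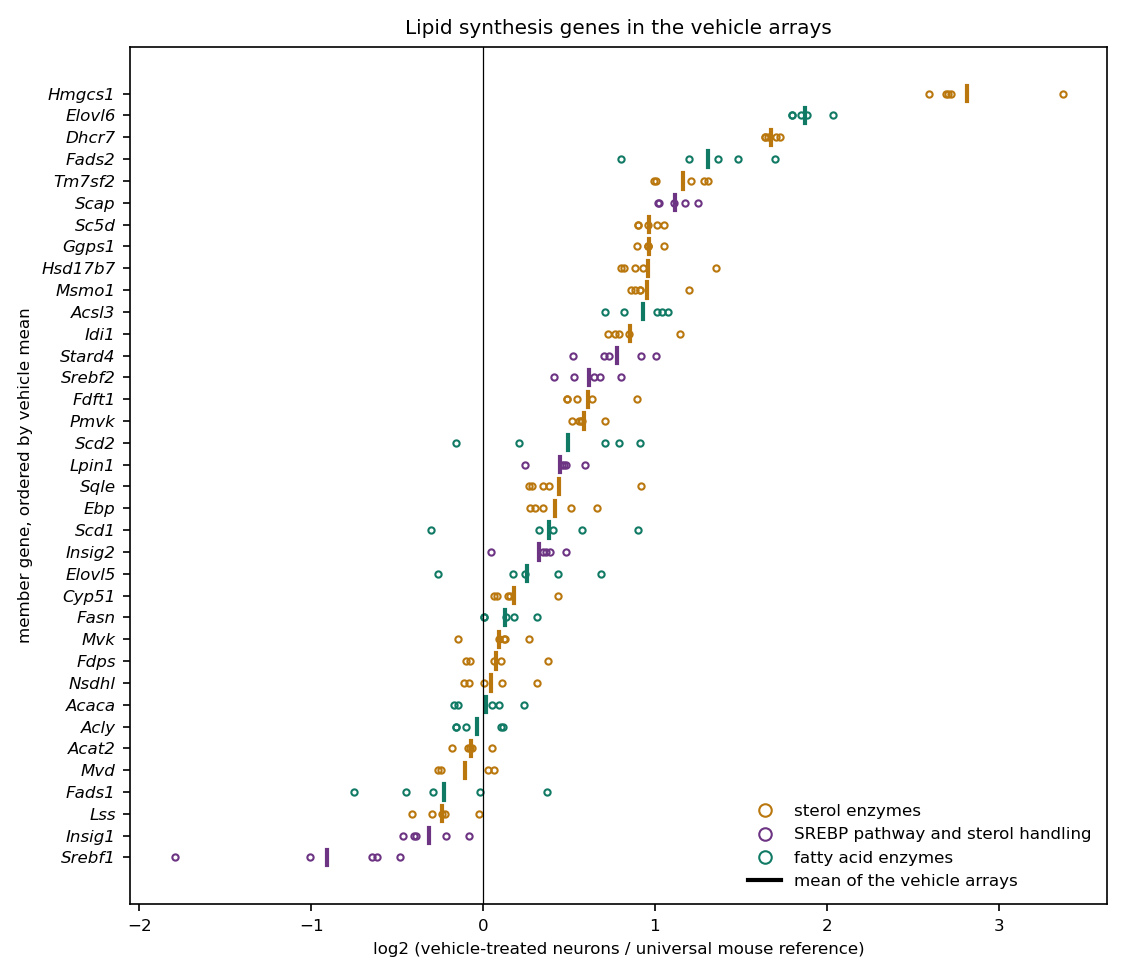
Level of each of the 36 genes in vehicle-treated cultures as the log2 ratio to the reference RNA, with an open point per array, a bar at the mean, colour for the sterol, SREBP and fatty acid lists, and genes ordered by mean. Hmgcs1 stands highest at 2.82 and Srebf1 lowest at -0.91, and Srebf1, Scd1 and Scd2 spread most between arrays.

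On the AP5 arrays 4 sterol enzymes and the elongase Elovl6 were called lower than on the vehicle arrays, and Lpin1 was called higher. No slide held both groups. Of the 36 genes 6 passed limma's test (Benjamini-Hochberg adjusted p below 0.05 over all genes), 5 of them lower and 1 higher. Over all genes 18% passed, 7.22% lower and 10.8% higher, so the share of members called was near the background. The median difference was -0.07 over the 36 genes and 0.01 over all genes tested. Of the 36 differences 26 were negative, against 8998 of 19205 over all genes. Among the sterol enzymes 4 of 19 fell and none rose (median -0.08), among the SREBP genes 1 of 7 rose and none fell (median -0.09), and among the fatty acid enzymes 1 of 10 fell and none rose (median -0.02). These counts are those of the brightest probe. For Srebf2 that probe gave -0.09 and the other kept probes -0.20, -0.47 and 0.02. For Sc5d it gave 0.01 and the other kept probe 0.37. Kept probes also disagreed in sign for Pmvk, Hsd17b7, Insig2, Acaca and Elovl5, and for Hmgcs1 and Fdft1 as given below. Nothing in the labels says that the samples of a group came from separate cultures, so a p-value here weighs a difference against the spread among the arrays as labelled, which may be technical.

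Msmo1 encodes the oxidase that removes methyl groups from sterol intermediates. Its log2 ratios with AP5 were 0.31, 0.80, 0.51, 0.44 and 0.31 on arrays 1 to 5, and with vehicle they were 1.20, 0.88, 0.86, 0.91 and 0.91. Every AP5 array lay below every vehicle array. The difference was -0.48 (SE 0.0898, 95% interval -0.67 to -0.29, 1.4-fold lower, limma adjusted p = 0.00115). Its single probe lies at chr8:67610377-67610436 in the mm8 build that the array files name.

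Idi1 encodes isopentenyl-diphosphate isomerase, which interconverts the building blocks of the isoprenoids. Its AP5 values were 0.40, 0.45, 0.28, 0.12 and 0.62 and its vehicle values 0.85, 0.79, 1.15, 0.73 and 0.77. The groups did not overlap, AP5 array 5 being nearest to the vehicle arrays. The difference was -0.48 (SE 0.112, 95% interval -0.72 to -0.25, 1.40-fold lower, limma adjusted p = 0.00565), and its other kept probe gave -0.33. The array files place the brighter probe at chr2:53516550-53516609 and the other also on chromosome 2 in mm8, whereas RefSeq places the Idi1 gene on chromosome 13, and a share of signal from a near-identical copy was not tested for either probe.

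Hmgcs1 read 2.40, 2.35, 2.09, 2.38 and 2.60 with AP5 and 2.70, 2.70, 3.37, 2.60 and 2.72 with vehicle. AP5 array 5 reached the level of vehicle array 4, so the groups touched. The difference was -0.45 (SE 0.148, 95% interval -0.76 to -0.14, 1.37-fold lower, limma adjusted p = 0.0395). Its other kept probes gave 0.11 and -0.27, the call was lost when any of AP5 arrays 1 to 4 or vehicle array 3 or 5 was left out, and in the reference channel alone Hmgcs1 was 0.13 higher on the AP5 arrays (limma adjusted p = 0.0473). It was the only member called in that channel, which carried the same reference RNA on all arrays and in which 1069 genes (5.57%) were called between the AP5 and vehicle arrays. The authors' processed table holds 20674 probes, and the brightest kept probe among those stood for each gene. The probe read there may therefore differ from the brightest one here. In that table the Hmgcs1 difference was 0.11, which is also the value of 1 of the other kept probes here.

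Fdft1 encodes squalene synthase, which commits the pathway to sterols. It read 0.11, 0.48, 0.44, 0.34 and 0.41 with AP5 and 0.63, 0.49, 0.90, 0.49 and 0.55 with vehicle. The highest AP5 array fell just short of the lowest vehicle array. The difference was -0.26 (SE 0.087, 95% interval -0.44 to -0.07, 1.19-fold lower, limma adjusted p = 0.0485). Its probe spans chr14:62101042-62105282 in mm8. It lost its call in 14 of the 19 fits that left out an array, and its other kept probe gave 0.18. In the authors' processed table, where that other probe may have stood for the gene, the difference was 0.21.

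Elovl6 was the fatty acid enzyme that fell. It read 1.27, 1.33, 1.24, 1.26 and 1.66 with AP5 and 1.80, 1.85, 2.04, 1.89 and 1.79 with vehicle. AP5 arrays 1 to 4 lay close together, AP5 array 5 was higher, and none reached the vehicle range. The difference was -0.52 (SE 0.0893, 95% interval -0.71 to -0.33, 1.44-fold lower, limma adjusted p = 0.000525), from a single probe at chr3:129630352-129630411 in mm8. Lpin1, a phosphatidate phosphatase of glycerolipid synthesis that also acts as a transcriptional coregulator, was the member that rose. It read 0.80, 0.89, 0.83, 0.89 and 0.84 with AP5 and 0.59, 0.47, 0.25, 0.48 and 0.46 with vehicle. The AP5 arrays clustered tightly and all lay above the vehicle arrays. The difference was 0.40 (SE 0.076, 95% interval 0.24 to 0.56, 1.32-fold higher, limma adjusted p = 0.0013), from a probe at chr12:16561989-16562047 in mm8, and its other 3 kept probes gave 0.34, 0.36 and 0.47.

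**Figure D2:**
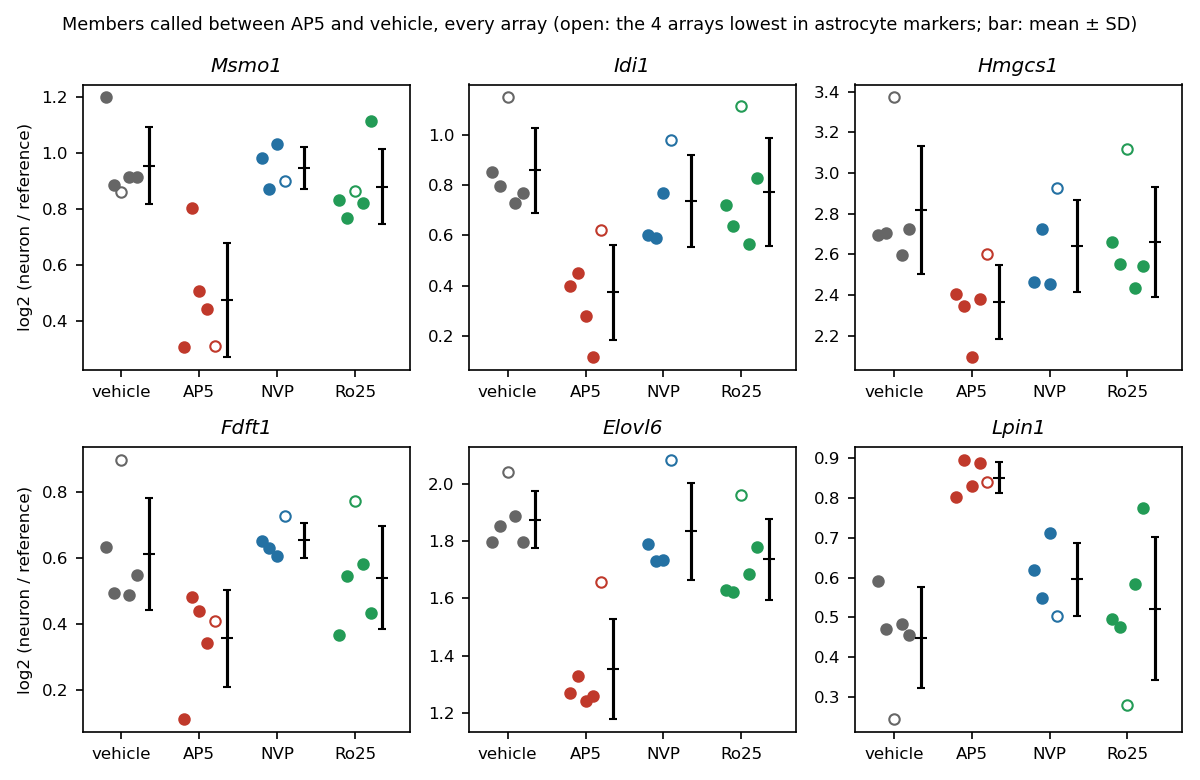
Log2 ratio to the reference RNA of the 6 genes called between AP5 and vehicle, with a point per array in each of the 4 groups (open for the 4 arrays lowest in astrocyte markers) and the mean with its SD. Msmo1, Idi1, Fdft1 and Elovl6 lie lower and Lpin1 higher on all AP5 arrays than on all vehicle arrays, Hmgcs1 touches the vehicle range, and the NVP-AAM077 and Ro25-4891 arrays overlap the vehicle arrays in all 6 genes.

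In all, 5 of the 36 genes had AP5 and vehicle ranges that did not overlap (Msmo1, Idi1, Fdft1, Elovl6 and Lpin1), against 11.9% of all genes. Just outside the threshold stood the cholesterol transfer protein gene Stard4 (-0.28, limma adjusted p = 0.0514), the squalene epoxidase gene Sqle (-0.36, adjusted p = 0.0523), mevalonate kinase Mvk (-0.28, adjusted p = 0.0551) and the sterol isomerase gene Ebp (0.39, adjusted p = 0.0747). Fdft1 at 0.0485 was the member called that lay nearest to it.

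Slide and treatment were confounded in this comparison. A fit with slide as a fixed block links AP5 with vehicle only through slides 2 to 4. Of these groups it rests on AP5 array 5 and vehicle array 2, whose astrocyte marker means were 3.14 and 3.75. With slide as a fixed block none of the 36 genes passed (0.0521% of all genes did), and while Msmo1 (-0.61) and Lpin1 (0.20) kept their direction, Idi1 (0.14), Hmgcs1 (0.46), Fdft1 (0.08) and Elovl6 (0.08) turned positive, as did the median of the sterol enzymes (0.32). Where a slide held AP5 beside another compound, AP5 array 5 minus the mean of NVP-AAM077 arrays 1 and 3 gave -0.70 for Msmo1, -0.22 for Fdft1, -0.10 for Elovl6, -0.07 for Idi1, 0.14 for Hmgcs1 and 0.17 for Lpin1, with an astrocyte mean of 3.14 against 4.17. Cell type markers were called in the comparison as well, where 10.8% of all genes rose and 7.22% fell. With AP5, 5 of the 12 neuron markers rose and 3 of the 8 microglia markers fell. Of the 17 astrocyte markers 3 rose, as did 2 of the 11 oligodendrocyte markers. The part of these cells in the members' changes was not tested. Without the 4 arrays lowest in astrocyte markers 7 members were called (15.5% of all genes, 6.01% lower and 9.52% higher), Msmo1 (-0.46), Idi1 (-0.47), Hmgcs1 (-0.37), Sqle (-0.30) and Elovl6 (-0.56) lower and Lpin1 (0.35) and Ebp (0.34) higher. With the astrocyte mean as a covariate 16 were called, 14 lower and 2 higher, where 29.3% of all genes were, 12.7% lower and 16.6% higher.

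The promoters of the 3 fallen sterol enzymes found in the RefSeq promoter table (GRCm38.p6 assembly) are printed because all 3 genes were called lower with AP5 and because SREBP factors act at the promoters of this pathway beside the CCAAT-binding factor NF-Y. Each window is the 250 bases before the start, read 5′ to 3′ on the gene's strand. Capitals mark matches, on either strand, to the sterol response element TCACNCCAC and to CCAAT, which do not overlap each other here. Hmgcs1 lies at chr13:119690101-119690350 (plus strand), Idi1 at chr13:8885356-8885605 (plus strand) and Msmo1 at chr8:64733579-64733828 (minus strand).
Hmgcs1: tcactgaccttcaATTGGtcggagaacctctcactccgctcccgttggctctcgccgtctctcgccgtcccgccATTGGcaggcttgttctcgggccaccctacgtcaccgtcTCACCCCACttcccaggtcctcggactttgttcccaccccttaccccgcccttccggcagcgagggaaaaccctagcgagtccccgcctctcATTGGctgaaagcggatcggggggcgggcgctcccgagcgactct
Idi1: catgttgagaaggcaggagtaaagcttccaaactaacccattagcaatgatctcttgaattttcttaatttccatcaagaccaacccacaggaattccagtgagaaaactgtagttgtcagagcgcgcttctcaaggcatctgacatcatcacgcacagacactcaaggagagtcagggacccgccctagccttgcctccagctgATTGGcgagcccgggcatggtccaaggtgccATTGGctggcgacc
Msmo1: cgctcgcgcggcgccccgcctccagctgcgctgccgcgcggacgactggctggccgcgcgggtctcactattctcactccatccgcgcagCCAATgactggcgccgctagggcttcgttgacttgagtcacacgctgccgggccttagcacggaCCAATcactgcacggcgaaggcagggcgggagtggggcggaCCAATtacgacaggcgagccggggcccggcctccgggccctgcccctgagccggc
The sterol response element in the Hmgcs1 window starts 137 bases before the gene's start, and CCAAT matches start 237, 176 and 45 bases before it. The Idi1 window has CCAAT matches at 45 and 14 bases and the Msmo1 window at 160, 96 and 55 bases before the start, with no match to TCACNCCAC in these letters. Over all 32851 windows of this length 1.05% held TCACNCCAC and 33.8% held CCAAT, which is 1.22% and 37.5% of the genes with a window. Of the 36 members 29 had a window. Hmgcs1 alone held TCACNCCAC, while CCAAT was found in 15 of 16 sterol enzymes with a window, 4 of 6 SREBP genes and 3 of 7 fatty acid enzymes. Neither Elovl6 nor Lpin1 held either motif, and a match is a description of the letters, not evidence that a factor binds.

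Outside the 36 genes, other genes of sterol synthesis, uptake, storage and efflux moved both ways with AP5, 3 of 16 lower and 2 higher. Over all genes 7.22% were called lower and 10.8% higher, and no list was tested against these shares. Mbtps1, the protease that makes the first cut in SREBP activation, rose (0.36, limma adjusted p = 0.00048). Of 20 other fatty acid and glycerolipid genes 4 rose and none fell, among them the elongase Elovl2 (0.45, adjusted p = 0.00209), the lipogenic regulator Thrsp (0.30, adjusted p = 0.00377) and the acyl-CoA synthetase Acsl1 (0.31, adjusted p = 0.0139).

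NVP-AAM077 at 100 nM changed none of the 36 genes beyond the test's threshold, nor did any gene of the array pass (0% of all genes, limma), and at an unadjusted p below 0.05 the count was 0 members and 1590 genes (8.28%). No member's arrays lay wholly outside the vehicle range, against 2.78% of all genes. The median difference from vehicle was 0.00, with 18 of 36 negative. Over all genes it was 0.01, with 8481 of 19205 negative. The member of each list with the smallest p was Hsd17b7, a sterol ketoreductase, at 0.14 (95% interval -0.09 to 0.38), Lpin1 at 0.15 (-0.02 to 0.31) and Fasn, fatty acid synthase, at 0.15 (-0.06 to 0.37), with limma adjusted p of 0.838, 0.688 and 0.784. Lpin1 read 0.62, 0.55, 0.71 and 0.50 on the 4 arrays, within or just above the vehicle arrays, and Hsd17b7 read 1.04, 1.08, 0.96 and 1.33 against 0.82, 0.93, 1.35, 0.88 and 0.80 with vehicle. In both genes the groups overlapped, and the other kept probe of Hsd17b7 gave -0.09. For 31 of the 36 genes the 95% interval lay within 0.5 of no change, and the widest was that of Srebf1, -0.74 to 0.89.

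Ro25-4891 at 1 µM likewise gave no call among the 36 genes or among all genes (0%, limma), with 0 members and 1182 genes (6.15%) at an unadjusted p below 0.05, and no member separated wholly from vehicle (0.817% of all genes did). The median difference was -0.05, with 26 of 36 negative. Over all genes it was 0.01, with 8913 of 19205 negative. The member of each list with the smallest p was Ggps1, which makes geranylgeranyl diphosphate, at 0.10 (95% interval -0.06 to 0.26), Insig1, which retains SCAP in the endoplasmic reticulum, at -0.12 (-0.30 to 0.05, limma adjusted p = 0.957), and Elovl6 at -0.14 (-0.33 to 0.05, adjusted p = 0.938). Elovl6 read 1.63, 1.62, 1.96, 1.69 and 1.78 on the Ro25-4891 arrays, and its range overlapped that of vehicle. On slide 4, which held 3 Ro25-4891 arrays beside vehicle array 2, the difference was -0.07 for Elovl6 and 0.03 for Msmo1. For 32 of the 36 genes the 95% interval lay within 0.5 of no change. A gene that missed the threshold is not thereby shown to be unaltered.

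Set side by side, the doses being different, the differences from the same vehicle arrays were -0.48, -0.01 and -0.07 for Msmo1 with AP5, NVP-AAM077 and Ro25-4891, and -0.52, -0.04 and -0.14 for Elovl6. The 95% intervals for Msmo1 were -0.21 to 0.19 with NVP-AAM077 and -0.26 to 0.11 with Ro25-4891, and those for Elovl6 were -0.24 to 0.16 and -0.33 to 0.05. The 3 contrasts between compounds were fitted in the same model, with p-values adjusted over all genes within each contrast, and they are not dose-matched. Against NVP-AAM077, AP5 was lower for Msmo1 (-0.47, limma adjusted p = 0.0053) and Elovl6 (-0.48, adjusted p = 0.00432), 2 of 36 members against 4.25% of all genes (1.36% lower, 2.88% higher). Msmo1 read 0.98, 0.87, 1.03 and 0.90 and Elovl6 1.79, 1.73, 1.73 and 2.08 with NVP-AAM077, all above the AP5 arrays. Idi1 (-0.36, adjusted p = 0.104), Fdft1 (-0.30, adjusted p = 0.0814) and Lpin1 (0.25, adjusted p = 0.0886) did not pass. Against Ro25-4891, AP5 was lower for Msmo1 (-0.41, adjusted p = 0.00898), Idi1 (-0.40, adjusted p = 0.0398) and Elovl6 (-0.38, adjusted p = 0.0125) and higher for Lpin1 (0.33, adjusted p = 0.0122), 4 of 36 members against 6.06% of all genes (1.95% lower, 4.11% higher). Lpin1 read 0.50, 0.48, 0.28, 0.58 and 0.77 with Ro25-4891, below every AP5 array, whereas Msmo1 at 0.83, 0.77, 0.86, 0.82 and 1.11 overlapped AP5 array 2. Between NVP-AAM077 and Ro25-4891 no member and no gene passed (0%, limma), with 0 members and 301 genes at an unadjusted p below 0.05. With slide as a fixed block no member was called in any contrast of AP5.

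**Figure D3:**
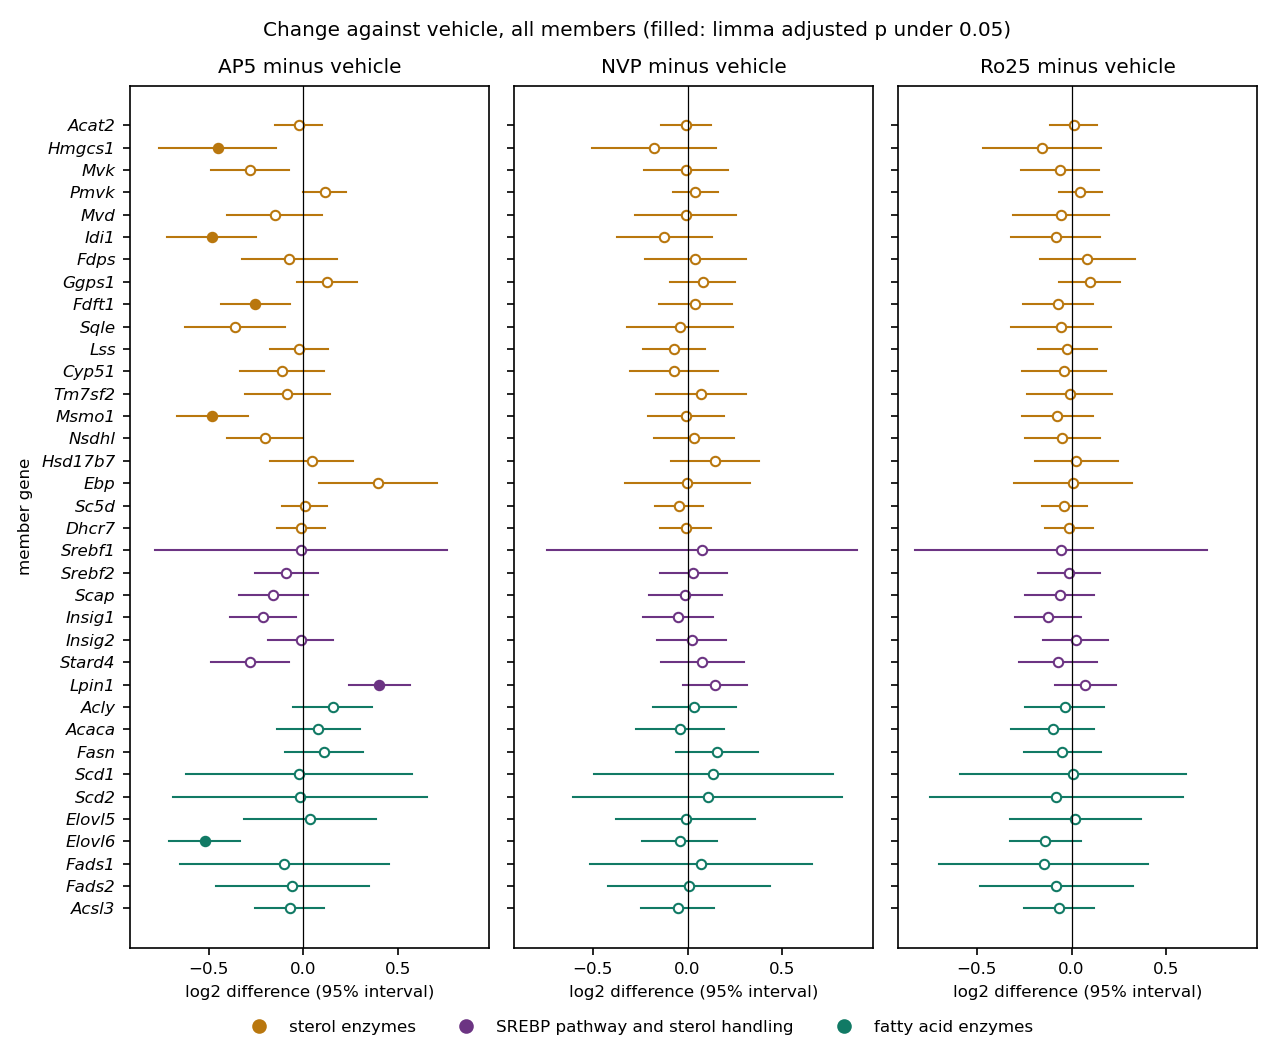
Difference from vehicle (log2) of each of the 36 genes with AP5, NVP-AAM077 and Ro25-4891, with 95% intervals and genes grouped by list, filled points marking limma adjusted p below 0.05. Filled points occur with AP5 alone, 5 to the left of 0 and Lpin1 to the right, and the doses of the compounds differ.

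The members also varied with the astrocyte signal of an array. The slope of each gene on the mean of the 16 astrocyte markers was fitted within groups, in log2 units of the gene per log2 unit of the marker mean. Of the 36 genes 25 had a slope that passed limma's test, 12 positive and 13 negative, against 32.9% of all genes, 15.9% positive and 17% negative. By list, the sterol enzymes had 11 negative and 2 positive slopes among 19 (median -0.16), the SREBP genes 4 positive and 1 negative among 7 (median 0.21), and the fatty acid enzymes 6 positive and 1 negative among 10 (median 0.34), against a median of -0.02 over all genes. Without the 4 arrays lowest in astrocyte markers the sterol enzymes had 3 positive and 0 negative calls (median 0.29), with background correction fitted to all spots they had 2 and 2 (median -0.05), and the difference between the lists was not tested. Slopes fitted over these arrays rest largely on the 4 arrays lowest in astrocyte markers, 1 in each group, and are therefore given with and without them.

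The largest slopes belonged to Srebf1 and to the desaturases. Srebf1 read -2.12 to -1.79 on those 4 arrays and -1.06 to -0.37 (median -0.59) on the other 15, a separation without overlap, with a slope of 1.38 (SE 0.0754, limma adjusted p = 7.1e-11). Scd2 read -0.50 to -0.15 against 0.14 to 1.01 (median 0.81), with a slope of 1.16 (SE 0.0965, adjusted p = 2.12e-08), and Scd1 read -0.48 to -0.15 against 0.05 to 0.98 (median 0.62), with a slope of 1.05 (SE 0.0712, adjusted p = 1.24e-09). Both enzymes introduce the first double bond into saturated fatty acids, and neither overlapped between the 4 arrays and the rest. The 2 desaturases of polyunsaturated fatty acid synthesis moved alike. Fads2 read 0.67 to 0.90 against 1.07 to 1.72 (median 1.37; slope 0.70, SE 0.0606, adjusted p = 3.79e-08), and Fads1 read -1.02 to -0.70 against -0.75 to 0.37 (median -0.03; slope 0.92, SE 0.1, adjusted p = 8.15e-07), a slight overlap. Without the 4 arrays, where 8.67% of all genes passed (3.5% negative, 5.17% positive), these slopes were 0.96 for Srebf1 (adjusted p = 0.0112), 1.43 for Scd1, 1.09 for Scd2 (adjusted p = 0.0409), 1.02 for Fads2 and 1.65 for Fads1, all still called.

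**Figure D4:**
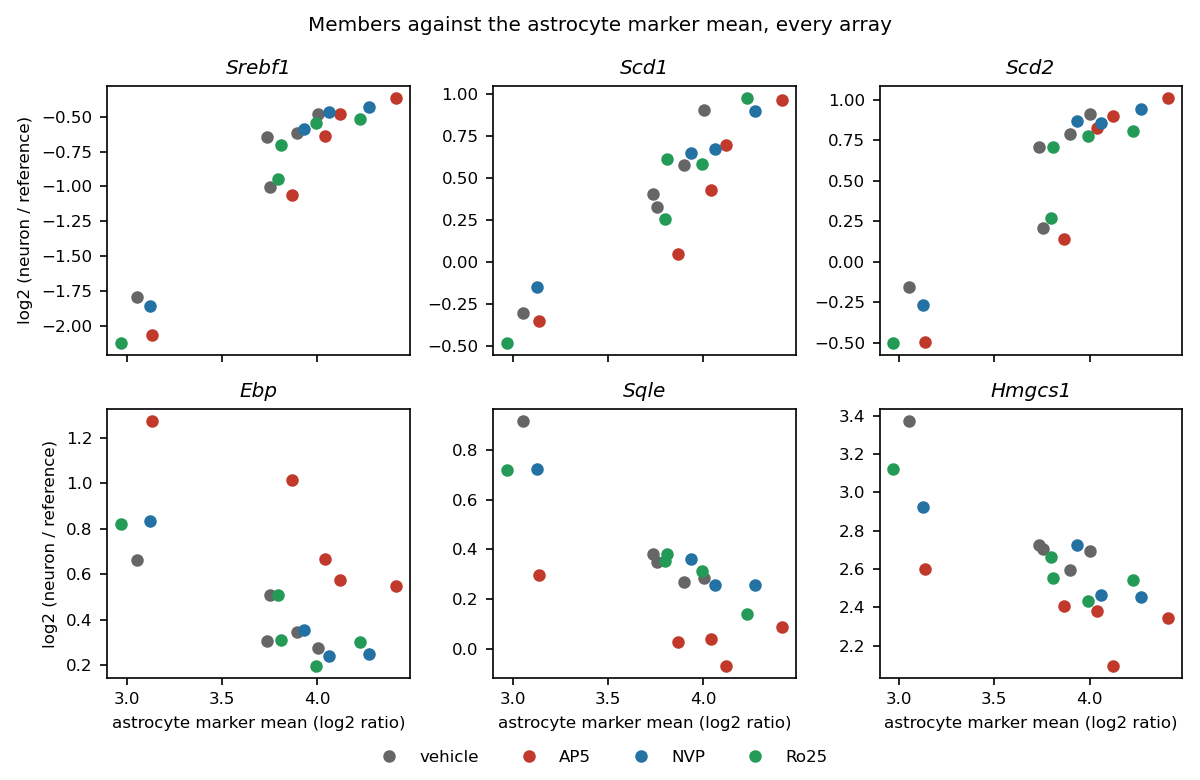
Log2 ratio of Srebf1, Scd1, Scd2, Ebp, Sqle and Hmgcs1 on each of the 19 arrays against the mean log2 ratio of 16 astrocyte markers, with colour for the group. Srebf1, Scd1 and Scd2 rise to the right while Ebp, Sqle and Hmgcs1 fall, and the 4 arrays with marker means of 3.14 or less stand apart at the left.

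Other SREBP genes had smaller positive slopes. Insig2, a partner of SCAP, read 0.05 to 0.19 on the 4 arrays and 0.31 to 0.50 on the rest, again without overlap, with a slope of 0.23 (SE 0.0489, limma adjusted p = 0.00113). Without the 4 arrays it was -0.05 and not called. Lpin1 had a slope of 0.21 (SE 0.0475, adjusted p = 0.00219), reading 0.25 to 0.84 on the 4 arrays and 0.46 to 0.89 on the rest, and kept its call without them (0.40). Scap, the escort of SREBP, read 0.70 to 1.02 against 0.83 to 1.27, overlapping, with a slope of 0.23 (SE 0.0575, adjusted p = 0.00523) that was 0.29 and not called without the 4 arrays. Srebf2, the gene of SREBP2, had a negative slope (-0.20), and its other kept probes disagreed in sign (-0.10, 0.19 and 0.09).

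Most of the negative slopes lay in the sterol arm, and their calls depended on the 4 arrays. Ebp, which shifts the double bond of the sterol ring, read 0.66 to 1.27 on the 4 arrays and 0.20 to 1.01 (median 0.35) on the rest, with a slope of -0.52 (SE 0.0569, limma adjusted p = 9.04e-07). Sqle read 0.30 to 0.92 against -0.07 to 0.38 (median 0.27), with a slope of -0.42 (SE 0.0554, adjusted p = 8.5e-06), and Hmgcs1 read 2.60 to 3.37 against 2.09 to 2.73 (median 2.54), with a slope of -0.48 (SE 0.0719, adjusted p = 4.41e-05). These 3 genes overlapped between the 4 arrays and the rest, whereas Hsd17b7 did not, at 1.10 to 1.35 against 0.80 to 1.08 (median 0.94; slope -0.32, SE 0.0576, adjusted p = 0.000323). The other negative slopes among the sterol enzymes were those of Fdps (-0.33), Idi1 (-0.30), Nsdhl (-0.24), Lss (-0.17), Dhcr7 (-0.16), Ggps1 (-0.16) and Acat2 (-0.13), and the fatty acid enzyme among them was Elovl6 (-0.27). Without the 4 arrays none of the 13 passed, and Ebp was -0.51 (adjusted p = 0.0904), Sqle -0.21, Hmgcs1 -0.25 and Hsd17b7 -0.09. Acat2, Idi1, Fdps, Lss, Nsdhl and Elovl6 read positive there. With the background correction fitted to all spots, marked ones included, Ebp and Sqle alone kept a negative call (of all genes 29.8% passed, 12.1% negative and 17.8% positive). The median of the sterol enzymes turned to 0.29 in those 15 arrays, where 11 of the 36 genes passed, all positive, 8 of them also called with all arrays. Mvd (1.04), Cyp51 (0.86) and Insig1 (0.57) passed in the 15 arrays alone, and Msmo1 read 0.78 there against 0.19 with all arrays.

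Msmo1 and Tm7sf2 (0.23), a sterol reductase gene, were the sterol enzymes with positive slopes over all arrays, and Elovl5 (0.44) and the acyl-CoA synthetase gene Acsl3 (0.24) completed the positive slopes of the fatty acid list. Without the 4 arrays Elovl5 was 0.96 and called, Tm7sf2 was 0.41 (adjusted p = 0.221) and Acsl3 was -0.02 (adjusted p = 0.962), neither of them called. Mvk, Pmvk, Mvd, Fdft1, Cyp51, Sc5d, Insig1, Stard4, Acly, Acaca and Fasn did not pass. The last 3 make cytosolic acetyl-CoA, malonyl-CoA and palmitate. Among the 36 genes 10 had ranges on the 4 arrays that did not overlap those on the other 15, against 7.1% of all genes. For Hmgcs1 the other kept probes gave slopes of -0.44 and -0.03, and for Lss, Cyp51, Sc5d, Srebf2 and Fasn the probes disagreed in sign.

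**Figure D5:**
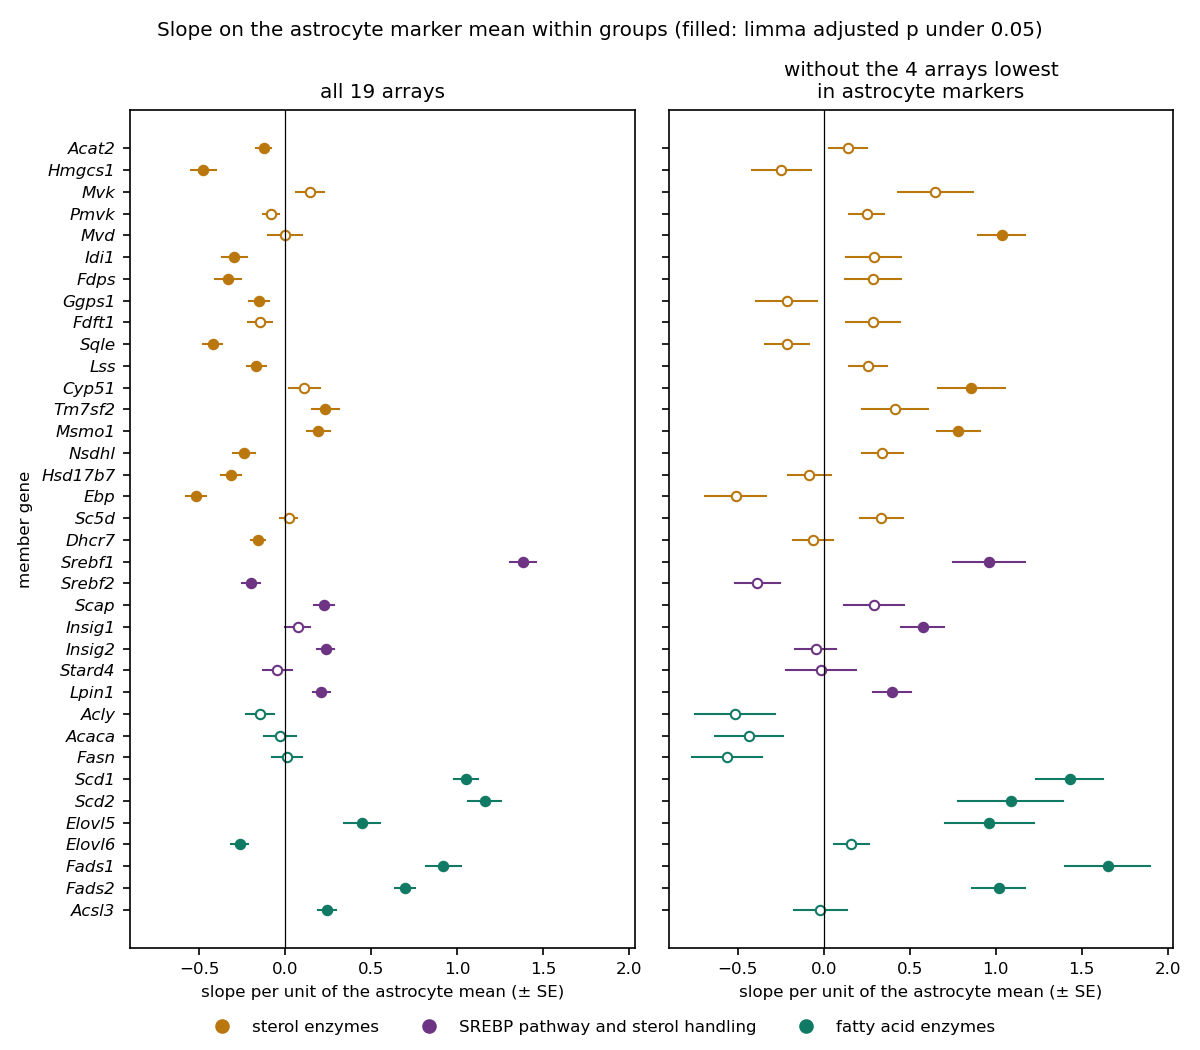
Slope of each of the 36 genes on the mean of 16 astrocyte markers (log2 per log2 unit, fitted within groups) with all 19 arrays and with the 15 arrays left after removing the 4 lowest in those markers, with bars of 1 SE, colour for the list and filled points for limma adjusted p below 0.05. With all arrays the sterol enzymes lie mostly to the left of 0 and the desaturases and Srebf1 to the right, and without the 4 arrays the called slopes are all positive.

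Some markers of other cells also had slopes that passed, where 17% of all genes had negative and 15.9% positive ones. Of the neuron markers 6 of 12 were negative, as were 2 of 8 microglia markers. Positive were 6 of 11 oligodendrocyte markers and 2 of 8 vascular markers. The vascular list had a median slope of 0.0009, with 4 of its 8 slopes below 0, called or not. The part of these cells in the members' slopes was not tested. With slide as a fixed block 17 slopes passed among the members, 9 positive and 8 negative, against 23.6% of all genes (11.2% positive, 12.4% negative). In the fit without that block, 7 of the 16 other sterol genes had positive and 3 negative slopes. They were led by the sterol acyltransferase gene Soat1 (0.96, limma adjusted p = 1.86e-09), the lysosomal cholesterol carrier gene Npc2 (0.53, adjusted p = 9.61e-09) and Apoe (0.80, adjusted p = 1.56e-06), the gene of the main apolipoprotein of astrocytes. Of the other fatty acid genes 7 of 20 had positive and 4 negative slopes, led by the elongase gene Elovl1 (0.52, adjusted p = 2.11e-07), the acetyl-CoA carboxylase gene Acacb (0.49, adjusted p = 1.59e-06) and the acyl-CoA synthetase gene Acsl4 (-0.55, adjusted p = 2.34e-06).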

How the data were processed

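The authors deposited the scanner output of 19 Agilent arrays of 45018 features, with intensity values of both channels, made with Agilent Feature Extraction 11.0 per the submitters' processing notes and 9.5.3.1 per the file headers, which name the mm8 build. The log10 ratios that the scanner software computed, also deposited, and the authors' processed table of log2 values served as alternatives. Here spots marked as non-uniform or outliers were dropped, and mean signals were corrected against the local median background with normexp (offset 50), then normalised array by array with loess, in which control spots had weight 0, and left unscaled between arrays (R 4.3.3, limma 3.58.1).

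Probes with red well above background on at least 4 arrays were kept (28650 of 41174), and the brightest kept probe stood for its gene. limma's lmFit and eBayes were fitted over all 19 arrays with 4 group means, without a replicate block, two-sided, with Benjamini-Hochberg adjustment over all genes tested. The slope model added the mean of 16 astrocyte markers. Exact permutation was used for that mean. Fits with the astrocyte mean in the model were tested on simulated data with independent arrays and no slide effect. The AP5 model without that mean was not tested in this way. The precision of array values is limited by the number of arrays. Promoters came from RefSeq (GRCm38.p6). No mm8 gene annotation was used here. Array columns outside the samples numbered 0.

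Values per array and full statistics are given, in each comparison with vehicle and for the slope, for up to 4 called members of each list with the smallest p, or the single member with the smallest p where none was called, and up to 3 called genes are named of each list of other pathway genes, some of which are not reported here. Members and lists were chosen with earlier results of these data known. Other normalizations, probe rules, blocks, subsets of arrays and a covariate were tried as alternatives.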

Additional observations from a re-analysis of the deposited data

Results flagged for a closer look

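Among 76 groups of values checked (19 genes in 4 groups), 10 had an array far from the others. Its gap to the nearest of them took up more of the group's range than Dixon's 95% critical value allows. Many of the 19 genes were named for their small p in the slope on the astrocyte mean, and all share the same arrays. The count of 10 can therefore not be set against a chance rate. Vehicle array 3 stood high for Hmgcs1 (3.37, the others 2.60 to 2.72), Hsd17b7 (1.35, the others 0.80 to 0.93) and Sqle (0.92, the others 0.27 to 0.38). NVP-AAM077 array 4 stood high for Elovl6 (2.08, the others 1.73 to 1.79) and low for Srebf1 (-1.86, the others -0.59 to -0.43) and Scd2 (-0.27, the others 0.86 to 0.94). Ro25-4891 array 3 stood low for Srebf1 (-2.12, the others -0.95 to -0.52), and AP5 array 5 stood high for Elovl6 (1.66, the others 1.24 to 1.33). These 4 arrays are those lowest in astrocyte markers in their groups. For Msmo1, vehicle array 1 stood high (1.20, the others 0.86 to 0.91), as did Ro25-4891 array 5 (1.11, the others 0.77 to 0.86).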

How the results depend on the processing

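The AP5 calls of Msmo1, Idi1, Elovl6 and Lpin1 were kept in all 19 fits that left out an array. Over those fits the count of members called ran from 4 to 8 for AP5 against vehicle, 2 to 4 for AP5 against NVP-AAM077, 3 to 4 for AP5 against Ro25-4891 and 21 to 25 for the slope, with adjusted p of 0.0215 to 0.103 for Hmgcs1 and 0.0341 to 0.141 for Fdft1. The comparisons of NVP-AAM077 and Ro25-4891 with vehicle and with each other gave 0 members in every alternative run.

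With slide as a fixed block AP5 gave 0 members against vehicle, 0 against NVP-AAM077 and 0 against Ro25-4891, and reversed were Idi1 (0.14), Hmgcs1 (0.46), Fdft1 (0.0767), Elovl6 (0.0805) and, for Ro25-4891, Insig1 (0.0040). With slide as a random block the count was 11 against vehicle, where 25.2% of all genes passed, and 5 against NVP-AAM077. The correlation within slides in that fit was -0.078, and calls over all genes against vehicle rose from 3463 to 4831. The count of 11 therefore does not show that the calls hold against slide. With the astrocyte mean as a covariate the counts were 16 against vehicle, where 29.3% of all genes passed, and 8 against NVP-AAM077. AP5 against NVP-AAM077 gave 4 with the authors' processed table, 4 with the mean of all kept probes and 5 when the 4 arrays with the least astrocyte signal were left out. AP5 against Ro25-4891 gave 2 with normexp fitted to all spots and 2 with red alone. The slope gave 13 with normexp fitted to all spots (11 positive, 2 negative) and 11 without the 4 arrays, where Insig2 reversed (-0.048), as did Acat2, Acsl3, Elovl6, Fdps, Idi1, Lss and Nsdhl. With the authors' table Hmgcs1 (0.11), Fdft1 (0.21) and, for Ro25-4891, Insig1 (0.0218) reversed. There the brightest kept probe that the table holds stood for the gene, so a different probe may have been read. Here the dimmer kept probes gave 0.11 and -0.27 for Hmgcs1 and 0.18 for Fdft1 with AP5. The dimmer Insig1 probe gave 0.0036 with Ro25-4891. Over all genes, AP5 against vehicle called 3463, against 842 with normexp on all spots, 2126 with red alone, 5626 with the covariate and 10 once slide was a fixed block. The cause of these shifts was not tested.

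Replicate numbers did not pair the arrays (8 of 27 same-numbered pairs correlated over 0.1, median r -0.198). With the replicate block 5 members were called for AP5 against vehicle, Hmgcs1 being lost (adjusted p = 0.068), 2 against NVP-AAM077, 3 against Ro25-4891 and 22 for the slope.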

Other observations

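The arrays AP5 1, Ro25-4891 1 and vehicle 2 were picked out after their values were seen. They lay between the 4 arrays lowest in astrocyte markers and the other 12 in Srebf1 (-1.06, -0.95 and -1.01, the 12 others -0.70 to -0.37), Scd2 (0.14, 0.27 and 0.21, the others 0.71 to 1.01), Scd1 (0.05, 0.25 and 0.33, the others 0.41 to 0.98) and Fads2 (1.09, 1.07 and 1.20, the others 1.34 to 1.72), with no overlap in these 4 genes. Their astrocyte marker means were 3.87, 3.80 and 3.75, within the range of the 12 others, of which vehicle array 5 was lower at 3.74. In Fads1 they read -0.75, -0.44 and -0.45, touching the range of the 12 others (-0.44 to 0.37). There AP5 array 1 also lay within the range of the 4 arrays (-1.02 to -0.70).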
